A study of Mus musculus with 5 samples.

Results

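The nuclear-encoded genes of respiratory complexes II to V were examined in satellite cells, the muscle stem cells, of dystrophic and healthy mice. Members were the protein-coding rows of the deposited normalized count table whose symbol belongs to succinate dehydrogenase (Sdha to Sdhd), the cytochrome bc1 complex (symbols starting with Uqcr, and Cyc1), cytochrome c (Cycs), cytochrome c oxidase (Cox4 to Cox8) or ATP synthase (symbols starting with Atp5). This rule, which uses no measured value, found 45 genes among the 22683 of the table, with 4 in complex II, 9 in complex III, cytochrome c, 15 in complex IV and 16 in complex V. Total RNA was sequenced from 3 mdx libraries (mdx 1, 2 and 3), from the mouse model of Duchenne muscular dystrophy, in which Dmd is mutated, and from 2 wild-type libraries. All 5 libraries came from sorted cells labelled as quiescent satellite cells, with 10000 to 20000 cells per library, and no treatment is labelled. The labels do not state age, strain, sex, muscle or gate, nor whether each library came from its own animal, so the spread behind the p-values may be technical.

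The respiratory chain passes electrons from metabolic fuels to oxygen and stores the released energy as a proton gradient across the inner mitochondrial membrane. Complex II, which is also an enzyme of the citric acid cycle, oxidizes succinate and reduces ubiquinone. Complex III passes the electrons from ubiquinol to the mobile carrier cytochrome c, complex IV hands them to oxygen, and complex V lets protons flow back to make ATP. Most subunits are encoded in the nucleus, a few in the mitochondrial genome, and some subunits of complex IV exist as alternative isoforms that differ between tissues. Resting satellite cells are known for low mitochondrial content, which increases when they are activated.

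Libraries summed to between 12473348 and 15930638 normalized counts in mdx and to 15217054 and 16825045 in wild type. Dmd, the dystrophin gene, had 4642, 4116 and 3700 normalized counts in mdx 1, 2 and 3, against 11826 and 9266 in wild type. Of 12 satellite cell markers, 6 were called lower and 3 higher (limma, adjusted p under 0.05), against 10.3% and 14.6% of all tested genes. Among the lower were Sdc4 (−3.32), Chodl (−2.29) and Cd34 (−1.92 on the log2 scale). The higher were Cdh15 (0.97), Itga7 (0.94) and Fgfr4 (0.79). The 12 markers summed to 61122, 54351 and 76563 in mdx, against 126602 and 114944 in wild type. Sdc4 (30886 and 27833) and Chodl (27683 and 29240) were the largest parts of the wild-type sums. Pax7, which defines these cells, had 12767, 9751 and 14989 in mdx, against 9103 and 7644 in wild type, and was not called. Markers of other cell types differed between the genotypes (over all tested genes, 14.6% were called higher and 10.3% lower). Of 7 fibro-adipogenic markers, 6 were called higher and 1 lower. They summed to between 58049 and 112025 in mdx, against 26766 and 18352 in wild type. Of 7 pericyte and smooth muscle markers, 4 were called higher, with sums between 9050 and 10600, against 3613 and 3135. All 8 endothelial markers were called higher and summed to between 13739 and 19771 in mdx, against 171 and 317 in wild type. Of 8 macrophage markers, 7 were called higher, with sums between 9967 and 14941, against 416 and 596. Of 14 myofiber markers, 3 were called higher and 1 lower, with sums between 4901 and 7314, against 2924 and 1943. In wild type, the endothelial gene Emcn and the macrophage genes Mrc1, C1qa and C1qb were at 0. The endothelial genes Kdr and Tie1 and the smooth muscle gene Myh11 had 0 to 7 there. All of these passed the filter described below through mdx libraries alone. The myofiber gene called lower, Myh7, passed it through wild-type libraries alone. Such calls are not independent of the group in which the gene was high. The Y-linked gene Uty had between 584 and 724 in mdx and was listed at 0 in wild type, while the X-inactivation transcript Xist had between 0 and 12 in mdx, against 30235 and 30176 in wild type, so that genotype and sex cannot be told apart here. The mitochondrial ribosomal RNA mt-Rnr2 made up 22.3%, 6.22% and 11.7% of the counts of mdx 1, 2 and 3, against 2.62% and 3.40% in wild type. The part of these differences in the results below was not tested, apart from the rescaling described where it matters.

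Genes of the respiratory chain are textbook targets of nuclear respiratory factor 1 (NRF-1) and of GA-binding protein (GABP, an ETS factor). Promoter sequence is therefore shown for 5 genes. The sequences are the 170 bases before the RefSeq transcription start (build GRCm38.p6), 5′ to 3′ on the gene's strand. Capitals mark exact matches on either strand: the longer runs, which begin and end with GCGC, match the NRF-1 motif on this or the opposite strand, with 1 inner base free to vary, and CTTCCGG is the reverse complement of the ETS motif CCGGAAG. The genes were chosen after the matches were seen, 1 gene called lower from each complex and Sdhd, which was not called.
Sdha (complex II, chr13:74350241-74350410, minus strand): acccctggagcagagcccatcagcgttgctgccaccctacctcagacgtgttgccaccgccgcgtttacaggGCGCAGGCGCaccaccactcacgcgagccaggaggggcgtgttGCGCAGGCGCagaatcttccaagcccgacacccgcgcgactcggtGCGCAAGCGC
Uqcrh (complex III, chr4:116075071-116075240, minus strand): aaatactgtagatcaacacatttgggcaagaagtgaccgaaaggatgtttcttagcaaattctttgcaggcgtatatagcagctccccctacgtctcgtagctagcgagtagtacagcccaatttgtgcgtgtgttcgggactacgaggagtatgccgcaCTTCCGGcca
Cox6a1 (complex IV, chr5:115348959-115349128, minus strand): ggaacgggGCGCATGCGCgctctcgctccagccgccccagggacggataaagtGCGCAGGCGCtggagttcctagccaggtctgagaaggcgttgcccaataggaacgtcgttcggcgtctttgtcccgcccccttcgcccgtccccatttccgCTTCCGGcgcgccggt
Atp5h (complex V, chr11:115419920-115420089, minus strand): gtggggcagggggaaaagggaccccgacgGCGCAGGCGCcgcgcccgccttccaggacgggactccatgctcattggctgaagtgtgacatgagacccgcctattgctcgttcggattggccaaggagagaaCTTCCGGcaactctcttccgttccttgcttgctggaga
Sdhd (complex II, chr9:50603850-50604019, minus strand): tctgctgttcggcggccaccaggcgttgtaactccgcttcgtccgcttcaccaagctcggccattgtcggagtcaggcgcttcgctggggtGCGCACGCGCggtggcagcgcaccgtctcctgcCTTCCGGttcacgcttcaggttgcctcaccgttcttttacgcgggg
The start of the gene in the deposited table lies inside the window for Sdha, Cox6a1 and Atp5h, and on its last base for Uqcrh. Promoters were found for 33 of the 45 genes, in windows from 250 bases before to 50 after the start. The NRF-1 motif was present in 10 of the 33 (30.3%), against 10.8% of 10636 tested protein-coding genes with a promoter and 5.19% of all 27025 genes of the table of promoters. Its stricter form, the palindrome with no free base, is counted within it and was present in 4 (12.1%), against 2.22% and 1.07%. The ETS motif was present in 11 (33.3%), against 18.6% and 9.93%, and the YY1 motif AAGATGGCG in 2 (6.06%), against 3.32% and 1.64%. A match describes the letters only, and a part of these factors in the fold changes was not tested. The genes of NRF-1 and GABP were not called in mdx against wild type. Nrf1 had a log2 fold change of 0.47, Gabpa −0.66 and Gabpb1 −0.30 (limma adjusted p = 0.292, 0.0613 and 0.535). Genes that were called lower in mdx did not hold these motifs alone: the NRF-1 motif was in 6 of the 19 that were called lower and in 4 of the 14 that were not, and the ETS motif in 7 of 19 and in 4 of 14.

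Transcripts of the 4 complexes were lower in mdx than in wild-type libraries. Summed over the 45 genes, mdx 1, 2 and 3 had 29162, 31478 and 34062 normalized counts, against 67414 and 75577 in wild type, so that the mdx mean was 44.2% of the wild-type mean. The summed level in mdx was 37.6% of wild type for complex II, 43.6% for complex III, 32.5% for complex IV and 50.1% for complex V. In each complex every mdx library lay below both wild-type libraries. Sums weigh abundant genes most, such as Sdha in complex II, with a mean of 5149 in wild type. The median log2 fold changes of complexes II, III, IV and V were −0.61, −1.33, −1.23 and −1.28. Without Atp5a1 and Atp5b the summed level of the other 43 genes in mdx was 36.1% of wild type. Lower levels per cell and a smaller share of cells that express these genes cannot be told apart in bulk RNA. Because mt-Rnr2 alone took up to 22.3% of a library, the sums were also set against library totals: they made up 0.183%, 0.252% and 0.244% of mdx 1, 2 and 3, against 0.443% and 0.449% of the wild-type libraries. Without the mitochondrial ribosomal RNAs in the total the shares were 0.239%, 0.270% and 0.278%, against 0.458% and 0.470%.

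**Figure D1:**
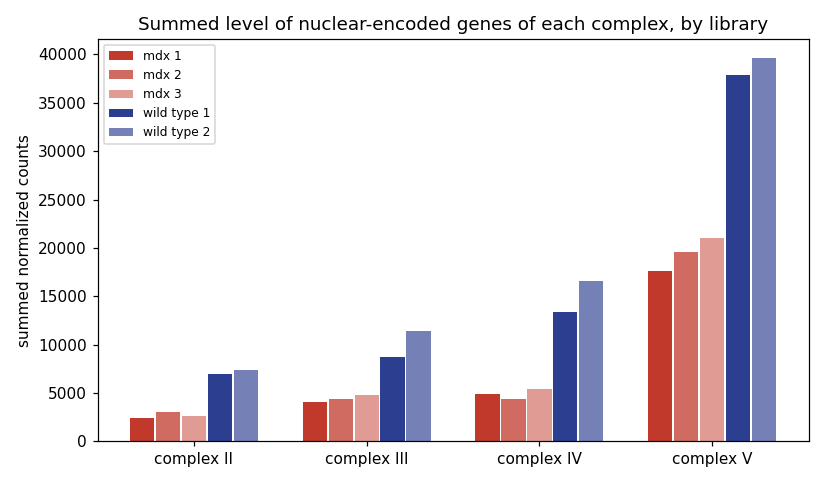
Summed normalized counts of the nuclear-encoded genes of complexes II, III, IV and V in each library (3 mdx libraries in red, 2 wild-type libraries in blue; 1 bar per library, no error bars). For complex V, the mdx bars stand at 17591, 19551 and 21076, below the wild-type bars at 37894 and 39634.

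Values were compared gene by gene on the log2(normalized count + 2) scale with limma over all 18199 genes that had at least 10 normalized counts in at least 2 libraries, and a gene was called at a Benjamini-Hochberg adjusted p under 0.05. The filter kept 44 of the 45 genes; Cox4i2, Cox6b2 and Cox7a1 passed it through mdx libraries alone or nearly so, and Cox8b did not pass. Of the 44, 25 (56.8%) were called lower in mdx, 1 was called higher and 18 were not called, while 10.3% of all tested genes were called lower and 14.6% higher. Their median log2 fold change was −1.25, against 0.13 over all tested genes, to which the folds below are not rescaled. In 32 of the 44, every mdx library was below both wild-type libraries, which held for 23.8% of all tested genes. By complex, 1 of 4 was called lower in complex II, 6 of 9 in complex III, 7 of 14 in complex IV and 10 of 16 in complex V, as was Cycs.

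**Figure D2:**
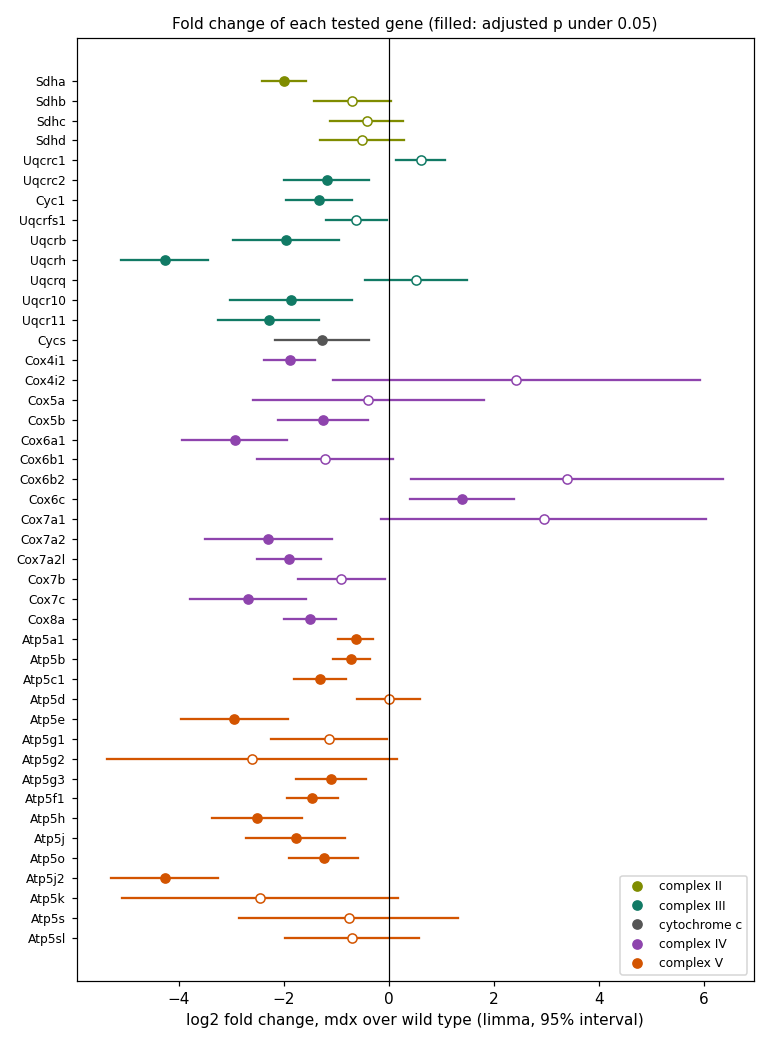
Log2 fold change of each of the 44 tested genes, mdx over wild type, with its 95% interval from limma (filled points: adjusted p under 0.05; colors: complexes). Of the filled points, 25 lie left of 0 and Cox6c alone lies right of it, and Uqcrh and Atp5j2 lie farthest left, at −4.27.

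Complex II is built from the flavoprotein Sdha, the iron-sulfur protein Sdhb and the membrane anchors Sdhc and Sdhd. Sdha (chromosome 13, 74322254 to 74350280, mm10), whose product holds the succinate site, had 1259, 1428 and 1175 normalized counts in mdx, against 4923 and 5375 in wild type. The mdx libraries all lay far below, a log2 fold change of −2.00 (SE 0.19, 95% interval −2.43 to −1.58, limma adjusted p = 0.000148). The partners were not called: Sdhb had 432, 345 and 375 in mdx, against 769 and 502 in wild type (log2 fold change −0.70, interval −1.43 to 0.04, adjusted p = 0.150). Sdhc had 407, 585 and 698 in mdx, against 726 and 751 in wild type (−0.42, interval −1.12 to 0.27, adjusted p = 0.337). Sdhd had 349, 642 and 382 in mdx, against 558 and 716 in wild type (−0.52, interval −1.32 to 0.28, adjusted p = 0.309), and for this gene the groups overlapped. Per kilobase of transcript, Sdha was the most abundant of the 4 in wild type, with 1776 normalized counts per kb against 233 to 556 for the others, and in mdx it had 444, against 178 to 372. The interval of the Sdha fold change lay wholly below the estimates of the other 3, but the difference between the genes was not tested.

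In complex III the small subunits held the widest range. Uqcrh, the acidic hinge protein between cytochrome c1 and cytochrome c (chromosome 4, 116066965 to 116075071), had 111, 157 and 193 normalized counts in mdx, against 2255 and 3819 in wild type. This was a 19.3-fold fall (log2 fold change −4.27, SE 0.37, 95% interval −5.11 to −3.44, limma adjusted p = 0.000101), the smallest adjusted p among the 44. Per kilobase, Uqcrh was the highest transcript of complex III in wild type (5552 per kb, the next being Uqcrb at 1330) and was below 6 others of the complex in mdx (281 per kb). Uqcrb, which binds at the ubiquinone side, had 110, 209 and 253 in mdx, against 611 and 812 in wild type (−1.96, adjusted p = 0.0130). Uqcr11 had 142, 98 and 112 in mdx, against 522 and 637 in wild type (−2.29, adjusted p = 0.00503). Uqcr10 had 74, 87 and 97 in mdx, against 372 and 268 in wild type (−1.86, adjusted p = 0.0285). For these 4 small subunits the groups did not overlap. Uqcrq, the remaining small subunit, stood apart with 365, 232 and 497 in mdx, against 278 and 214 in wild type; it was not called (0.51, adjusted p = 0.412) and its groups overlapped.

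The catalytic and core subunits of complex III differed among themselves. Cyc1, the cytochrome that hands electrons to cytochrome c, had 431, 645 and 537 in mdx, against 1496 and 1197 in wild type, and fell 2.52-fold (adjusted p = 0.00828). Uqcrfs1, the Rieske iron-sulfur protein, had 733, 1020 and 750 in mdx, against 1130 and 1432 in wild type, and was not called (log2 fold change −0.62, adjusted p = 0.106). The core subunits, which descend from a mitochondrial processing peptidase, went opposite ways. Uqcrc1 had 1366, 1432 and 1439 in mdx, against 958 and 903 in wild type, with every mdx library higher, yet it was not called (0.60, interval 0.14 to 1.06, adjusted p = 0.0609). Uqcrc2 had 758, 473 and 874 in mdx, against 1122 and 2143 in wild type, and was called lower (−1.19, adjusted p = 0.0394). Without wild type 2 the log2 fold change of Uqcrc2 was −0.72, and the gene was not called. Without mdx 1, 2 or 3 its log2 fold change was −1.27, −0.93 and −1.37, and the call ended as well (limma adjusted p = 0.120, 0.138 and 0.0880). In the 3 fits without an mdx library 7.39%, 6.93% and 6.49% of all genes were called lower, against 10.3% with every library. The call of Cyc1 ended without mdx 3 (adjusted p = 0.0506), that of Uqcrb without mdx 2 (0.0536), and that of Uqcr10 without wild type 1 (0.125) or mdx 1, 2 or 3 (0.0620, 0.0620 and 0.0613).

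Cytochrome c itself, which carries electrons from complex III to complex IV and also takes part in apoptosis when released from mitochondria, was lower. Cycs had 174, 214 and 205 in mdx, against 379 and 613 in wild type, with all mdx libraries below (log2 fold change −1.28, SE 0.40, adjusted p = 0.0438). The call ended without wild type 2 (−0.94, adjusted p = 0.282) and without mdx 1, 2 or 3 (0.102, 0.0847 and 0.0953).

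**Figure D3:**
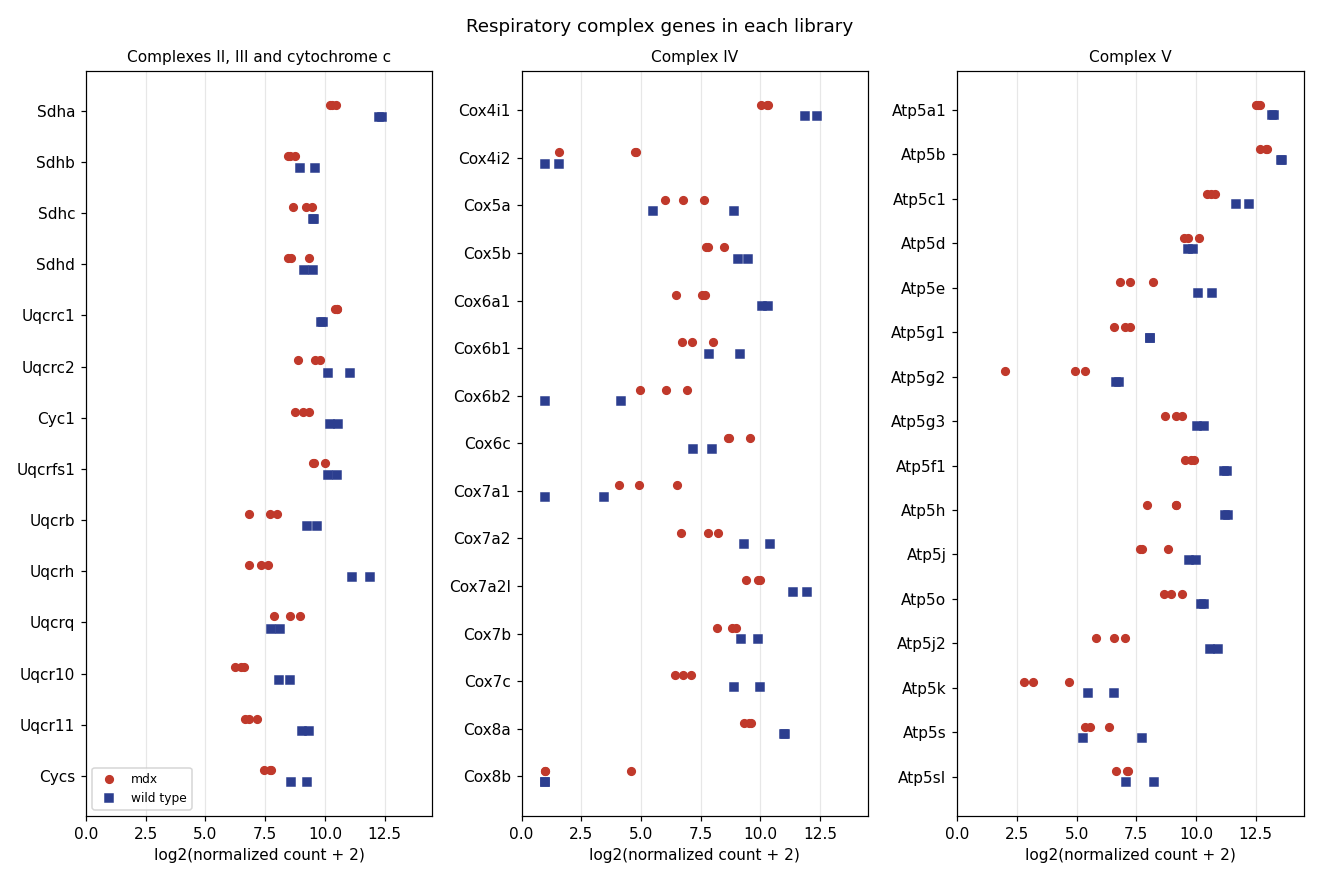
Level of each of the 45 genes on the log2(normalized count + 2) scale, in 3 mdx libraries (red circles) and 2 wild-type libraries (blue squares). The red points lie left of both blue points for 32 genes and right of both for Uqcrc1, Cox6b2, Cox6c and Cox7a1.

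Complex IV surrounds its mitochondrially encoded catalytic core with small nuclear-encoded subunits, and 7 of the 14 tested fell. Cox4i1, the common isoform of the subunit that binds ATP and tunes the enzyme (chromosome 8, 120668222 to 120674207), had 1227, 1044 and 1287 in mdx, against 3716 and 5206 in wild type (−1.89, SE 0.22, adjusted p = 0.000445). Cox6a1, the common isoform of subunit 6a, had 188, 87 and 203 in mdx, against 1056 and 1277 in wild type, a 7.69-fold fall (adjusted p = 0.00175). Cox7c had 83, 133 and 107 in mdx, against 473 and 1021 in wild type (−2.69, adjusted p = 0.00451). In all 7 genes that fell, no mdx library reached the wild-type range. Cox8a had 776, 640 and 738 in mdx, against 2000 and 2091 in wild type (−1.51, adjusted p = 0.00141). Cox7a2 had 223, 300 and 99 in mdx, against 639 and 1363 in wild type (−2.30, adjusted p = 0.0140). Cox5b, which binds zinc, had 354, 210 and 222 in mdx, against 709 and 527 in wild type (−1.26, adjusted p = 0.0401). Cox7a2l is a relative of subunit 7a that tethers complex III to complex IV in supercomplexes; it had 1016, 669 and 946 in mdx, against 2662 and 3965 in wild type (−1.91, SE 0.27, adjusted p = 0.00121). The call of Cox7a2 ended without mdx 1 (adjusted p = 0.0695) or mdx 3 (0.0601), and that of Cox5b without wild type 1 (0.134), mdx 2 (0.109) or mdx 3 (0.117).

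Cox6c was the exception in complex IV. It had 393, 412 and 746 in mdx, against 141 and 250 in wild type, and was called higher with the libraries of the genotypes apart (log2 fold change 1.39, SE 0.44, 95% interval 0.40 to 2.38, adjusted p = 0.0471). The call ended without wild type 1 (0.98, adjusted p = 0.104) and without mdx 1, 2 or 3 (0.0937, 0.101 and 0.159). By limma at an unadjusted p under 0.05, 3 of the 44 genes were higher in mdx, against 3948 of all 18199 tested genes. Besides Cox6c these were Uqcrc1 and Cox6b2. The remaining complex IV genes were not called. Cox5a had 105, 196 and 62 in mdx, against 468 and 43 in wild type, so the wild-type libraries lay on both sides of all mdx libraries; without wild type 2 its log2 fold change was −2.09 (adjusted p = 0.0189) and without wild type 1 it was 1.30 (adjusted p = 0.298). Cox6b1 had 140, 103 and 258 in mdx, against 569 and 230 in wild type, and was called lower only without wild type 2 (−1.86, adjusted p = 0.0161). X-linked Cox7b had 285, 448 and 500 in mdx, against 962 and 588 in wild type (−0.91, adjusted p = 0.102), and without wild type 2 it was called (−1.26, adjusted p = 0.0194).

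Some complex IV subunits have a second isoform with a narrower tissue range, and in these sets the common isoform carried nearly all of the wild-type counts. Cox7a1, the isoform typical of heart and skeletal muscle, had 15, 28 and 90 in mdx, against 9 and 0 in wild type (log2 fold change 2.94, interval −0.16 to 6.04, adjusted p = 0.149). Per kilobase it made up 10.1%, 13.5% and 60.4% of the sum of Cox7a1 and Cox7a2 in mdx 1, 2 and 3, against 2.31% and 0% in wild type. Muscle-type Cox8b was listed at 0 in every library but mdx 3, where it had 22. Cox6b2, an isoform known from testis, had 29, 65 and 118 in mdx, against 16 and 0 in wild type, and was not called (log2 fold change 3.39, interval 0.43 to 6.35, adjusted p = 0.0900). Without wild type 1, the only wild-type library with counts of Cox6b2, the log2 fold change was 4.98. After the length and GC correction described below Cox6b2 was called higher (4.38, limma adjusted p = 0.0458). Because this gene passed the filter nearly through mdx libraries alone, these values are no independent support for a higher level. Cox4i2, an isoform typical of lung, had 26, 25 and 1 in mdx, against 1 and 0 in wild type, and the groups overlapped (adjusted p = 0.279). Beside these values stand the myofiber markers, of which 3 of 14 were called higher and 1 lower, against 14.6% and 10.3% of all tested genes. Their sum was 7314, 4901 and 5255 in mdx 1, 2 and 3, against 2924 and 1943 in wild type, and their part in the isoform values was not tested.

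**Figure D4:**
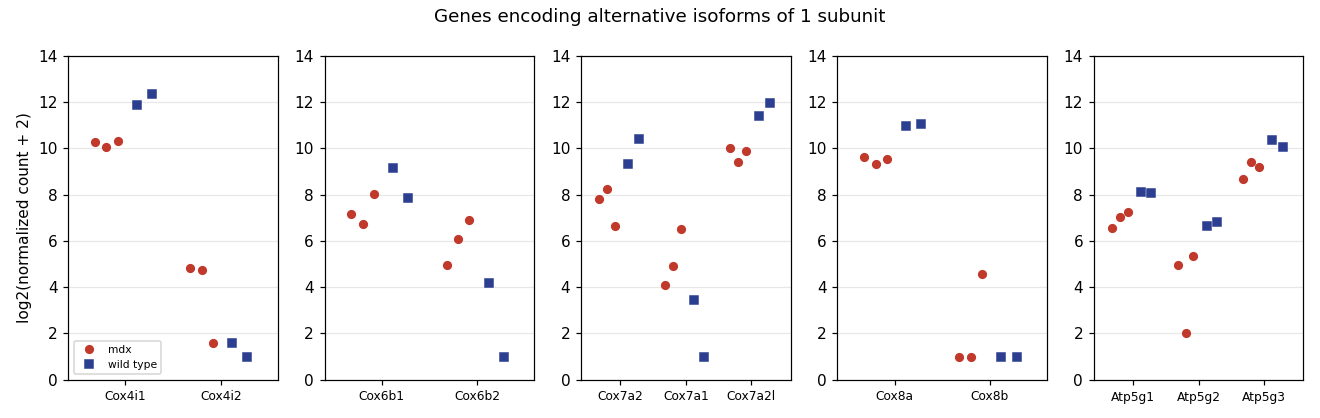
Genes that encode alternative isoforms of subunits 4, 6b, 7a and 8 of complex IV (with the relative Cox7a2l) and of the c subunit of ATP synthase, on the log2(normalized count + 2) scale (mdx libraries, red circles, left of wild-type libraries, blue squares; each point is 1 library). Cox4i1, Cox7a2 and Cox8a are lower in mdx, while Cox7a1 and Cox6b2 are at 15 to 118 normalized counts in mdx and at 0 to 16 in wild type.

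ATP synthase had the highest summed level of the 4 complexes. The catalytic head subunits fell least among the called genes: Atp5b, the beta subunit, had 6575, 8005 and 7852 in mdx, against 12159 and 12403 in wild type (log2 fold change −0.72, SE 0.15, adjusted p = 0.00998). Atp5a1, the alpha subunit, had 5755, 6184 and 6525 in mdx, against 9233 and 9876 in wild type (−0.64, SE 0.15, adjusted p = 0.0153). Neither gene's groups overlapped, but both calls depended on the scaling: with library totals made equal, the log2 fold changes were −0.53 and −0.45 (adjusted p = 0.129 and 0.168), and after quantile normalization 0.04 and −0.07 (0.886 and 0.800). The call of Atp5b ended without mdx 1 (adjusted p = 0.0545), and that of Atp5a1 without mdx 1 (0.0676) or mdx 2 (0.0566).

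The central stalk, which turns inside the head, was uneven. Atp5e, the epsilon subunit, had 292, 112 and 150 in mdx, against 1614 and 1087 in wild type, a 7.71-fold fall (log2 fold change −2.95, SE 0.45, adjusted p = 0.00194). Atp5c1, the gamma subunit, had 1422, 1561 and 1758 in mdx, against 3289 and 4699 in wild type, a 2.50-fold fall (adjusted p = 0.00278). Atp5d, the delta subunit, had 799, 728 and 1101 in mdx, against 931 and 803 in wild type, and its fold change was near 0 (−0.00, interval −0.61 to 0.60, adjusted p = 0.993). Thus in mdx libraries the delta transcript was at 941 per kb and epsilon at 439, against 931 and 3208 per kb in wild type.

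All 4 genes of the peripheral stalk, which keeps the head from turning, were called lower, and their libraries did not overlap. Atp5h, subunit d, had 577, 243 and 569 in mdx, against 2378 and 2579 in wild type (−2.52, SE 0.38, adjusted p = 0.00178). Atp5f1, subunit b, had 750, 890 and 970 in mdx, against 2288 and 2493 in wild type (−1.46, SE 0.22, adjusted p = 0.00158). Atp5j, coupling factor 6, had 213, 197 and 454 in mdx, against 834 and 1018 in wild type (−1.78, adjusted p = 0.0145). Atp5o, which joins stalk and head, had 405, 496 and 684 in mdx, against 1170 and 1284 in wild type (−1.24, adjusted p = 0.0146). The calls of Atp5j and Atp5o ended without mdx 1 (adjusted p = 0.0760 and 0.0564) or mdx 2 (0.0705 and 0.0656).

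Of the membrane part, Atp5j2, subunit f (chromosome 5, 145183698 to 145192062), changed the most. It had 130, 93 and 55 in mdx, against 1952 and 1522 in wild type, a 19.3-fold fall (log2 fold change −4.27, SE 0.45, 95% interval −5.29 to −3.25, limma adjusted p = 0.000272). Atp5k, subunit e, was at low levels, with 5, 24 and 7 in mdx, against 42 and 93 in wild type, and was not called (−2.46, interval −5.08 to 0.17, adjusted p = 0.155). The proton-carrying c ring is made from 3 genes whose mature products are identical. Atp5g3 had 410, 673 and 578 in mdx, against 1289 and 1062 in wild type, and was called lower (−1.11, adjusted p = 0.0241). Atp5g1 had 93, 127 and 150 in mdx, against 270 and 268 in wild type (−1.14, adjusted p = 0.119), and Atp5g2 had 29, 2 and 39, against 97 and 109 (−2.61, adjusted p = 0.150). In all 3 genes every mdx library was below both wild-type libraries, and the call of Atp5g3 ended without mdx 1 (0.0665) or mdx 3 (0.0779). Atp5s, coupling factor B, and Atp5sl, which is named for its likeness to Atp5s and is known as an assembly factor of complex I, had 39 to 79 and 97 to 139 in mdx, against 214 and 37 and 134 and 301 in wild type. Neither was called (adjusted p = 0.577 and 0.385), and their groups overlapped.

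Transcript length moved with the fold changes across the whole table. The 45 genes have short transcripts, with a median of 727 bases against 2838 bases over tested protein-coding genes, and short transcripts in general were lower in mdx. Among tested protein-coding genes the median log2 fold change was −1.14 below 500 bases, −0.71 from 500 to 1000, −0.19 from 1000 to 2000, 0.19 from 2000 to 4000 and 0.54 from 4000 upward, and the share called lower was 31.1%, 20.4%, 12.3%, 9.82% and 6.43%. In the same classes the respiratory genes had medians of −2.29 (9 genes), −1.38 (18), −0.84 (12) and −0.70 (5), with 4, 12, 6 and 3 called lower and no gene from 4000 bases upward. In each class that held them their median was below that of the class, though the shortest and longest of these classes hold only 9 and 5 of them. Among the 44 genes themselves, log2 length and log2 fold change had Pearson's r = 0.05 and Spearman's rho = 0.26, a description over genes that share libraries. GC content of the transcripts was alike, with medians of 51.0% and 50.8%.

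**Figure D5:**
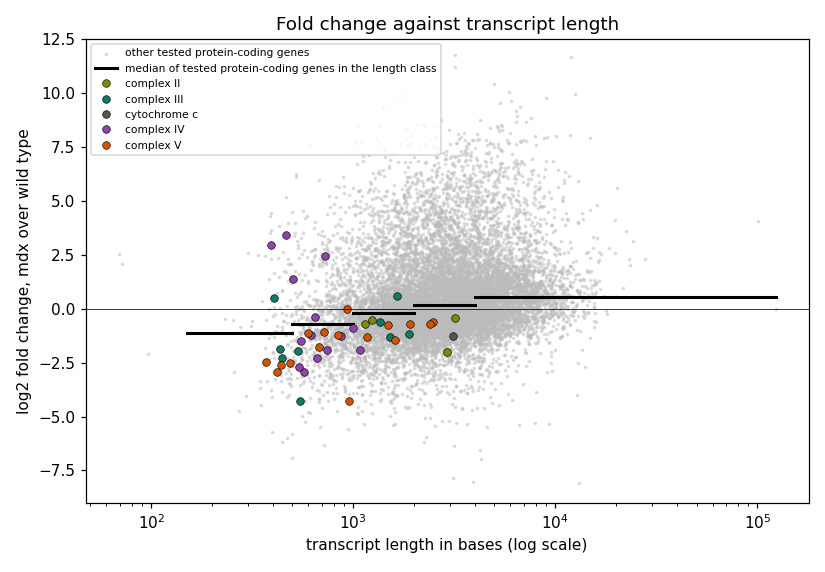
Log2 fold change, mdx over wild type, against transcript length (log scale) for tested protein-coding genes (gray), with the median in 5 length classes (black lines) and the 44 genes of complexes II to V in color. The black lines climb from −1.14 to 0.54, and most colored points lie below 0 and below the line of their class.

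With each library's smooth trend on length and GC content removed, 15 of the 44 genes were called lower and 3 higher, against 11.0% and 9.76% of all genes, and the median log2 fold change was −0.73, against −0.04 over all genes. Lower calls remained for Sdha, Cyc1, Uqcrh, Uqcr11, Cox4i1, Cox6a1, Cox7a2l, Cox8a, Atp5a1, Atp5b, Atp5c1, Atp5e, Atp5f1, Atp5h and Atp5j2, and ended for Uqcrc2, Uqcrb, Uqcr10, Cycs, Cox5b, Cox7a2, Cox7c, Atp5g3, Atp5j and Atp5o. Cox6c (2.62, adjusted p = 0.00397), Uqcrq (1.56, 0.0276) and Cox6b2 (4.38, 0.0458) were called higher. With library totals made equal, 17 were called lower and 1 higher, against 7.39% and 15.4% of all genes; after quantile normalization 23 and 2, against 10.5% and 13.9%. With neither trended nor robust moderation 13 were called lower, against 6.32% of all genes, and the higher call ended, against 10.2%. Sdha had a log2 fold change of −2.14 after the length and GC correction, Uqcrh −3.18 and Atp5j2 −3.82.

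Leaving out 1 library moved the counts more through mdx than through wild type. Without mdx 1, 16 of the genes were called lower, against 7.39% of all genes; without mdx 2, 17, against 6.93%; and without mdx 3, 18, against 6.49%. In these 3 fits Cox6c was not called, while 9.97%, 8.71% and 8.47% of all genes were called higher. Without wild type 1, 23 were called lower and Cox6b2 higher, against 10.8% and 19.3% of all genes, and without wild type 2, 26 were called lower and Cox6c higher, against 9.01% and 15.8%. Pseudogenes were a further possible source of shared reads. Of the 45 genes, 12 had a pseudogene copy of at least 95% identity over at least 200 bases. No such copy was found for 18 of the 25 genes called lower, or for 33 of all 45. The copies of 4 genes were themselves in the table, and at no gene did they sum to more than 83 normalized counts in a library. For Uqcrb, Cycs, Cox6c, Cox7a2l, Cox7b, Atp5c1, Atp5g1, Atp5g2, Atp5f1, Atp5h, Atp5o and Atp5k, which have such copies, the counts are uncertain where reads were split between gene and copy.

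Genes that build or control the complexes were set beside the subunits. Of 38 assembly factors found in the table, 3 (7.89%) were called lower, against 10.3% of all tested genes, and the rest were not called. The median log2 fold change of the 38 was −0.65. By limma without adjustment, 8 were lower and none higher at p under 0.05, against 2985 and 3948 of all 18199 tested genes. Sdhaf4, which helps to insert Sdha into complex II, was listed at 0 in all mdx libraries, against 53 and 141 in wild type (limma adjusted p = 0.0151). It passed the filter through the wild-type libraries alone, so its call is not independent of the group in which it was high. Surf1, needed to assemble complex IV, had 214, 104 and 76 in mdx, against 380 and 572 in wild type (−1.95, adjusted p = 0.0302). Cox20, which guides a core subunit of complex IV, had 231, 276 and 122 in mdx, against 659 and 633 in wild type (−1.69, adjusted p = 0.0211). Of 17 regulators of mitochondrial biogenesis, 3 were called higher and 1 lower, against 14.6% and 10.3% of all tested genes. Ppargc1b, a coactivator of respiratory genes, had 359, 476 and 320 in mdx, against 93 and 78 in wild type (2.13, adjusted p = 0.00812), and its partner receptor Esrra had 244, 208 and 165, against 42 and 54 (2.05, adjusted p = 0.0303). Polrmt, the mitochondrial RNA polymerase, had 461, 358 and 627 in mdx, against 258 and 86 in wild type (1.64, adjusted p = 0.0473). Nfe2l2, a regulator of antioxidant genes, had 905, 432 and 760 in mdx, against 2413 and 2317 in wild type (−1.82, adjusted p = 0.00368). After correction for length and GC content Ppargc1b, Esrra and Polrmt were not called (adjusted p = 0.0775, 0.226 and 0.632), nor were Surf1 (0.0511) and Cox20 (0.837). In that fit 3 of the 17 regulators were called lower, against 11.0% of all genes: Nfe2l2 (limma adjusted p = 0.00677), Yy1 (−0.84, 0.0355) and Pprc1 (−0.87, 0.0220).

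Mitochondrially encoded partners and neighbouring pathways were read beside these lists. Cytochrome b of complex III (mt-Cytb) had 47811, 8132 and 23966 in mdx, against 70435 and 128650 in wild type (−2.18, adjusted p = 0.0476, and 0.157 after the length and GC correction), and complex IV subunit 1 (mt-Co1) had 286924, 66497 and 109810, against 135492 and 237128, with overlapping groups (adjusted p = 0.557). Of 6 mitochondrially encoded subunits listed for complexes III to V, these 2 were matched by symbol, and the others have no values here. Of 38 genes with Nduf symbols, listed as complex I subunits, 9 (23.7%) were called lower, against 10.3% of all tested genes. Their median was −0.89. Among the 9 was Ndufa6, with 202, 160 and 470 in mdx, against 1814 and 2485 in wild type (−3.09, limma adjusted p = 0.00144). Ndufa4 was also among the 9 (−2.72, adjusted p = 0.00942), though its product is a subunit of complex IV, so the count is by symbol. After the length and GC correction 6 of the 38 were called lower, against 11.0% of all genes, with a median of −0.48. Of 14 citric acid cycle enzymes outside complex II, 4 (28.6%) were called lower and 1 higher, against 10.3% and 14.6% of all tested genes. The higher one, Mdh2, had 2026, 2343 and 2438 in mdx, against 1411 and 1308 in wild type (0.73, limma adjusted p = 0.0241). After the length and GC correction 5 of the 14 were called lower and 1 higher, against 11.0% and 9.76% of all genes. The lists were not tested against each other.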

How the data were processed

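Total RNA of 5 libraries was measured by sequencing with a stranded low-input kit, per the labels' protocols. The submitters' processing notes name STAR 2.6.1d, featureCounts 1.6.3 of Subread, DESeq2 1.18.1 and the build mm10; neither strand setting nor the handling of duplicate and multiply mapped reads is stated. The deposited values are treated as a score: read counts that the authors scaled per library and rounded. This was read from the values, since median ratios of the columns are nearly equal while totals differ, and regularly spaced whole numbers never occur in mdx 1. Raw counts were not restored, so no count model was run.

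Values were transformed to log2(value + 2), and genes with at least 10 in at least 2 libraries were fitted with limma 3.58.1 (R 4.3.3, genotype as the only term, trended and robust moderation, two-sided p, Benjamini-Hochberg adjustment over 18199 genes, 95% intervals). Fold changes are differences of log2(value + 2), which understates those of low genes. Transcript length and GC content are of the APPRIS principal transcript in GENCODE M21, which held all 45 genes, 36 with the table's coordinates. Sums over genes and shares have no test: an exact permutation test of 3 against 2 libraries cannot reach the threshold. The script was tested on simulated data. Named with every library's value were the called genes, isoform sets, Sdha to Sdhd, Cyc1 and Cycs, and in other lists up to 4 called genes of smallest p; the other genes of the complexes were added after their values were seen. Members, gene lists, motifs and alternatives were chosen with earlier results of these data known.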

Additional observations from a re-analysis of the deposited data

How the results depend on the processing

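Scaling, filter, pseudocount, length correction, moderation, replicate block and the 5 libraries were varied for the counts of calls, the medians and the 44 genes. Lower calls held under all 15 alternatives for 10 genes: Sdha, Uqcrh, Cox4i1, Cox6a1, Cox7a2l, Cox8a, Atp5e, Atp5f1, Atp5h and Atp5j2. Of 25 lower calls there were 15 with length and GC correction (16 with the longest transcript of each gene, chosen after seeing the data), 13 without trended and robust moderation, 15 with the replicate number as a block and 16 to 26 with 1 library left out (16 without mdx 1). Higher calls, 1 as reported, were 2 after quantile normalization, 3 with length and GC correction, and 0 with a pseudocount of 0.5, without trended and robust moderation, with the replicate block or with the longest transcript (limma; at an unadjusted p under 0.05 there were 3, 3, 1 and 4), and 0 to 1 with 1 library left out. The median log2 fold change of −1.25 was −0.73 with length and GC correction and −0.80 with the longest transcript. The summed level in mdx was 50.8% of wild type with equal library totals. Equal totals ended 8 lower calls and shifted the median of all genes to 0.31. Over all genes, 2659 higher and 1868 lower calls were 1163 and 860 with the block, 1450 to 3308 and 1112 to 1853 with 1 library left out, 1772 higher with the longest transcript and 1150 lower without trended and robust moderation. Signs turned for 4 genes: Cox5a (0.49 with length and GC correction, 0.12 with the longest transcript, 0.0012 with the block, and −2.09 to 1.30 with 1 library left out), Atp5b (0.043, quantile normalization), Atp5d (0.18 with equal totals, 0.051 with quantile normalization, −0.18 to 0.12 with 1 library left out) and Atp5s (−2.00 to 0.47 with 1 library left out); the cause was not tested. Replicate numbers are not labelled as pairs, mdx 3 has no partner in the block, and same-numbered libraries deviated with r = −0.01 and −0.02. Where 1 wild-type library remained, it was assumed to vary like the mdx libraries. Low values limit Cox4i2, Cox8b, Cox7a1, Cox6b2 and Atp5k, where rounding and single libraries weigh most.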
